A study of Homo sapiens with 6 samples.

Results

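The human mitochondrial genome is a small circle of DNA kept in many copies per cell, and this account covers 10 of the 37 genes it carries: the ribosomal RNAs MT-RNR1 and MT-RNR2 and the messenger RNAs MT-CO1, MT-CO2, MT-CO3, MT-CYB, MT-ND1, MT-ND2, MT-ND4 and MT-ATP6. The members were chosen by symbol, with earlier results from these same 6 libraries known, so their differences between the genotypes are given as a description without p-values. The rule has no threshold. All 10 were found among the 59715 genes of the deposited table and all 10 had enough counts to enter the fit. The other 27 are 5 messengers and 22 transfer RNAs.

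The cells were HCT116, a human line established from a colorectal carcinoma, in 3 libraries labelled MLL4WT and 3 labelled MLL4KO. MLL4 is read here as KMT2D, a methyltransferase of histone H3 lysine 4 at enhancers, although the name has also been used for KMT2B. Both groups were grown in the same medium with serum and no treatment is given for either. The labels name no clone, do not say how the knockout was made and do not say whether replicates were separate cultures, so the p-values below measure only the spread between these samples, which may be technical. Poly(A) RNA was selected before the libraries were made.

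Library totals ran from 6829400 to 19736751 counts. MLL4WT replicate 1 was the shallowest and the one library whose column name carries the flow cell code 22J7GLLT4, and it also stood apart in several members, so values without it are given beside the members' differences. MLL4WT replicate 3 shares a code (22HVHFLT4) with MLL4KO replicate 1, and MLL4WT replicate 2 shares another (22J7KTLT4) with MLL4KO replicates 2 and 3. KMT2D mRNA was 235 ± 4.60 CPM (counts per 1000000, SD, n = 3) in MLL4WT and 232 ± 9.56 CPM (n = 3) in MLL4KO, so its level does not check the genotype labels. KMT2B mRNA fell from 90.5 ± 3.44 to 63.2 ± 3.45 CPM (SD, n = 3 each, edgeR adjusted p 2.33e-05). Which gene was targeted was not tested. The summed level of 8 colon epithelial markers was 1607 to 1670 CPM in MLL4WT and 1082 to 1105 CPM in MLL4KO: EPCAM, KRT8, KRT18 and KRT19 fell, CDH1 and CDX2 had log2 differences of 0.04 and 0.10 and were not called, and CDX1 was listed at 0 in all 6 libraries. The 10 markers of other cell types summed to between 29.4 and 34.1 CPM, most of it the collagen gene COL1A1, which rose from 22.4 to 27.3 CPM, while COL3A1 fell from 5.22 to 0.776 CPM and the T cell gene CD3E had 1 count in all. Over all tested genes, 6021 of 14543 passed an adjusted p of 0.05 in the edgeR quasi-likelihood test, 2885 higher and 3136 lower in MLL4KO, against 3706 higher and 2394 lower with total counts as the scaling and 3561 and 2475 with upper quartile factors.

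Mitochondrial DNA is transcribed as long precursors that cover most of a strand. Transfer RNAs lie between most of the coding genes, and cutting them out frees the rRNAs and messengers, an arrangement known as tRNA punctuation. MT-RNR1 (12S) and MT-RNR2 (16S) are the RNAs of the small and large subunit of the mitochondrial ribosome, and the messengers encode core subunits of respiratory chain complexes I, III and IV and of ATP synthase, complex V. The messengers get poly(A) tails, which in several of them complete a stop codon that the DNA leaves unfinished, whereas the rRNAs are known to carry only short tails of adenines.

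The last 30 bases of each annotated member, 5′ to 3′, are shown because a poly(A)-selected library depends on the tails of its RNAs. After MT-CO1 and MT-CO2 further bases follow before the next tRNA on their strand. For these members the printed end need not be where a tail is added. The sequences come from the GENCODE release 29 transcripts on GRCh38. Capitals mark the bases of the final stop codon that the gene itself holds, and the rRNAs have none.
MT-RNR1: aagtgtactggaaagtgcacttggacgaac
MT-RNR2: tatacccacacccacccaagaacagggttt
MT-CO1: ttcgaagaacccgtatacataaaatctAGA
MT-CO2: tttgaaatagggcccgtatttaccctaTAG
MT-CO3: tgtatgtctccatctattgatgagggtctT
MT-CYB: taattgaaaacaaaatactcaaatgggccT
MT-ND1: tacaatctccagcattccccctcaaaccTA
MT-ND2: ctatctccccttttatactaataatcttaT
MT-ND4: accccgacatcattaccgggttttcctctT
MT-ATP6: gtaagcctctacctgcacgacaacacaTAA
Of the 8 messengers, 5 (MT-CO3, MT-CYB, MT-ND1, MT-ND2 and MT-ND4) end in T or TA and are completed by added adenines, and 3 (MT-CO1, MT-CO2 and MT-ATP6) hold a whole codon at the end. No member has a long internal run of adenines, the longest being 4 to 7 bases.

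The tRNA that follows the rRNA genes shows how tightly the transcript is packed. MT-TL1, the leucine tRNA at chrM:3230-3304 on the + strand, starts at the base after MT-RNR2 ends and is shown whole.
MT-TL1: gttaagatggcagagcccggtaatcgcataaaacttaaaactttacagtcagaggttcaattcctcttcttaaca
No base separates MT-RNR1, MT-RNR2, MT-ND1, MT-ND2, MT-CO3, MT-ND4 or MT-CYB from the tRNA downstream of it. MT-CO1 is followed by 72 bases and MT-CO2 by 25 before the next tRNA on the same strand. MT-ATP6 overlaps MT-CO3 by 1 base and MT-ATP8, its neighbour upstream, by 46.

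MT-RNR1 was 1.58-fold higher in MLL4KO, MT-RNR2 had a log2 difference of 0.09, and all 8 messengers were lower on average, by 1.58-fold in MT-CO2 at the most and by a log2 difference of -0.05 in MT-CYB at the least. The direction of MT-CYB turned to 0.16 without MLL4WT replicate 1, above MT-RNR2 at 0.07. Of the 10 members, 1 was higher past an adjusted p of 0.05, 6 were lower and 3 were not past it, where 41.4% of all tested genes passed in either direction, 19.8% higher and 21.6% lower. In 6 of the 10 every library of one genotype lay above every library of the other, as in 52.5% of all tested genes. Without MLL4WT replicate 1, 4 members were past it, where 49.5% of all tested genes passed. With the flow cell code as a term all 10 were past it, 3 higher (MT-RNR1, MT-RNR2 and MT-CYB) and 7 lower, where 51.3% passed. The rule used this contrast, and nothing is read from these counts. The median log2 difference was -0.28 over the 10 members and -0.40 over the 8 messengers, beside -0.0044 over all tested genes, and without MLL4WT replicate 1 it was -0.21 and -0.30. In bulk RNA, fewer cells of a type and less RNA per cell cannot be told apart.

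**Figure D1:**
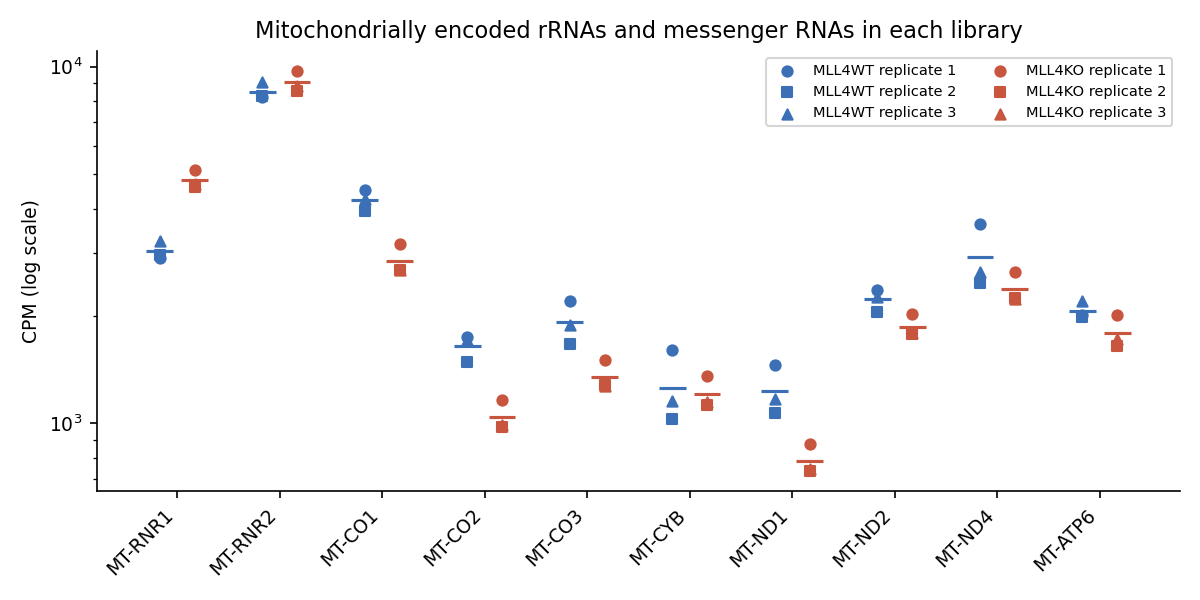
Level of each of the 10 members in CPM on a log axis, with a point for each library and a line at the mean of each genotype. All 3 MLL4KO libraries lie above all 3 MLL4WT libraries in MT-RNR1, while MT-CO1, MT-CO2, MT-CO3, MT-ND1 and MT-ND2 have the opposite order without overlap.

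MT-RNR1 (ENSG00000211459, chrM:648-1601, + strand, 954 bases) lies near the start of the heavy-strand transcript. Its level was 2900, 2957 and 3253 CPM in MLL4WT replicates 1 to 3 and 5130, 4596 and 4683 CPM in MLL4KO replicates 1 to 3. Every MLL4KO library was above every MLL4WT library. The means were 3037 ± 190 CPM (SD, n = 3) and 4803 ± 286 CPM (n = 3), a log2 difference of 0.66 ± 0.06 (SE). It was 0.64 without MLL4WT replicate 1, and 0.66 and 0.65 between libraries that share a flow cell code.

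MT-RNR2 (ENSG00000210082, chrM:1671-3229, + strand, 1559 bases) follows, with only a tRNA gene between them. It was the most abundant member, at 8227, 8279 and 9034 CPM in MLL4WT and 9738, 8555 and 8818 CPM in MLL4KO. The genotypes overlapped, since MLL4WT replicate 3 exceeded MLL4KO replicates 2 and 3. The log2 difference was 0.09 ± 0.06 (SE, n = 3 and 3), or 0.07 without MLL4WT replicate 1.

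The ratio of MT-RNR1 to MT-RNR2, which are cut from one precursor, was 0.352, 0.357 and 0.360 in the MLL4WT libraries and 0.527, 0.537 and 0.531 in the MLL4KO libraries. It varied little within a genotype, at 0.357 ± 0.00387 (SD, n = 3) in MLL4WT and 0.532 ± 0.00527 (n = 3) in MLL4KO, a 1.49-fold difference. MLL4WT replicate 1 lay with the other MLL4WT libraries in this ratio. The log2 difference was 0.58 ± 0.01 (SE), and 0.55 and 0.58 within the shared flow cell codes.

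The counts of both rRNAs over the counts of the 8 messengers came to 0.570, 0.715 and 0.711 in MLL4WT and 1.01, 1.05 and 1.07 in MLL4KO. All MLL4KO ratios were above all MLL4WT ratios, and MLL4WT replicate 1 was the lowest of the 6. The means were 0.665 ± 0.0827 (SD, n = 3) and 1.04 ± 0.0343 (n = 3), and the means of the log2 ratios were 1.58-fold apart. The log2 difference was 0.66, or 0.55 without MLL4WT replicate 1, with differences of 0.50 and 0.57 within the shared codes. Taken singly against the same messengers, MT-RNR1 gave a log2 difference of 1.06 and MT-RNR2 one of 0.48.

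**Figure D2:**
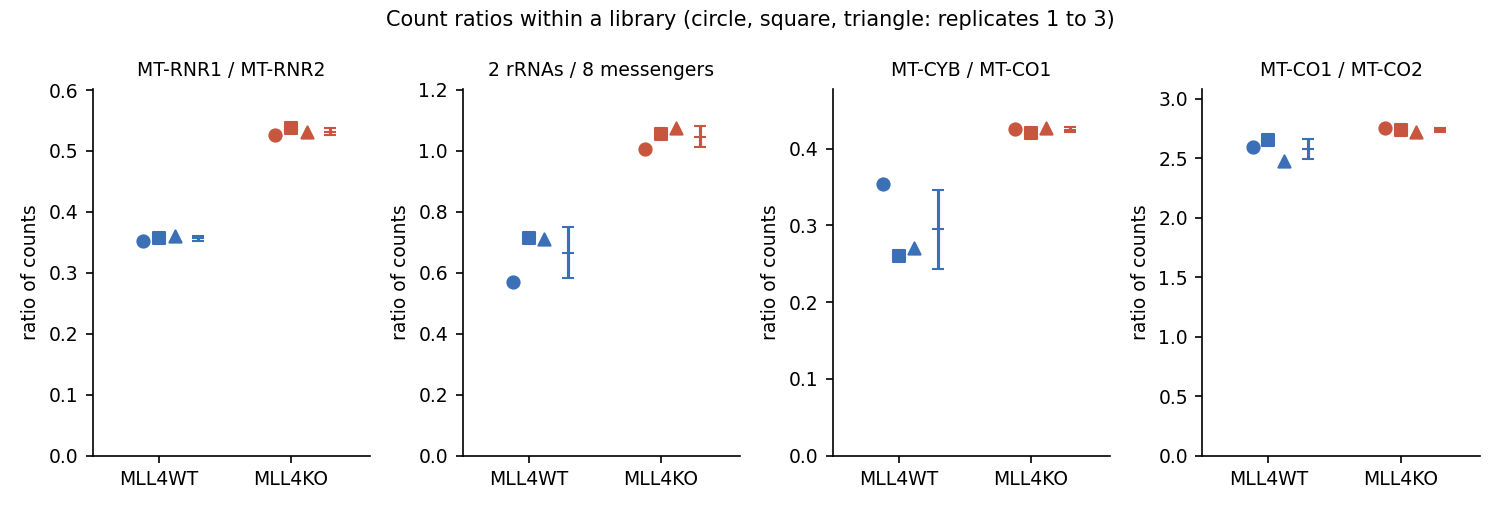
Ratios of counts within each library, on linear axes that start at 0, with a point per library and the mean ± SD of each genotype. The ratio of MT-RNR1 to MT-RNR2 clusters near 0.357 in MLL4WT and near 0.532 in MLL4KO, with no overlap.

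The mitochondrial genome as a whole took a similar part of the counts in both genotypes. Its 37 genes held 3.47%, 2.84% and 3.14% of all counts in MLL4WT and 3.30%, 2.86% and 2.90% in MLL4KO, values that overlap (means 3.15 ± 0.311% and 3.02 ± 0.241%, SD, n = 3 each). The widest 95% Wilson interval, in MLL4WT replicate 1, ran from 3.45% to 3.48% and covers counting error only. Within those counts the rRNAs made up 31.6%, 38.4% and 38.2% in MLL4WT and 45.9%, 47.0% and 47.4% in MLL4KO. In MLL4WT replicate 1 the Wilson interval of this share was 31.4% to 31.8%. So the balance of rRNA to messenger differed between the genotypes in every library, while the summed level did not separate them.

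RNA species known to lack a poly(A) tail bear on how much of such RNA passed the selection, and 13 of them summed to 90.5, 68.8 and 70.1 CPM in MLL4WT and 85.9, 91.6 and 83.8 CPM in MLL4KO. These sums overlap through MLL4WT replicate 1. Of the 9 of them with enough counts, RN7SL2, an RNA of the signal recognition particle, rose from 33.5 ± 2.84 to 42.5 ± 4.63 CPM (SD, n = 3 each, edgeR adjusted p 0.00595), none fell and 8 were not called, with a median log2 difference of 0.34. The part of poly(A) capture in the rRNA result was not tested.

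Complex IV, cytochrome c oxidase, takes its catalytic core from MT-CO1, MT-CO2 and MT-CO3, and all 3 were lower in MLL4KO in every library. MT-CO1 (ENSG00000198804, chrM:5904-7445, + strand), which holds the haem and copper centre that reduces oxygen, was at 4522, 3949 and 4249 CPM in MLL4WT and 3189, 2682 and 2688 CPM in MLL4KO. The MLL4KO libraries were all lower, by 1.49-fold on average (4240 ± 287 to 2853 ± 291 CPM, SD, n = 3 each; log2 -0.57 ± 0.07, SE). Without MLL4WT replicate 1 it was -0.52, and within the shared codes -0.41 and -0.56.

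MT-CO2 (ENSG00000198712, chrM:7586-8269, + strand), which takes electrons from cytochrome c, was at 1740, 1489 and 1713 CPM in MLL4WT and 1159, 978 and 989 CPM in MLL4KO. The groups did not overlap, and its mean of 1647 ± 138 against 1042 ± 101 CPM (SD, n = 3 each) gave the lowest log2 difference of the 10 members, at -0.66 ± 0.08 (SE), or -0.61 without MLL4WT replicate 1. MT-CO3 (ENSG00000198938, chrM:9207-9990, + strand), a structural core subunit, was at 2204, 1668 and 1885 CPM in MLL4WT and 1501, 1278 and 1270 CPM in MLL4KO. MLL4WT replicate 1 was its highest library, and its log2 difference of -0.51 ± 0.11 (SE, n = 3 and 3) became -0.39, no longer past the threshold, without that library.

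Together the 3 complex IV messengers took 35.2%, 39.4% and 39.5% of the counts of all 13 mitochondrial messengers in MLL4WT and 33.4%, 33.3% and 33.0% in MLL4KO. Their share was lower in every MLL4KO library, with MLL4WT replicate 1 nearest to them. The Wilson interval of the first value reached up to 35.4%. Among nuclear genes for complex IV assembly, 8 of 21 tested fell and 2 rose, 47.6% called beside 41.4% of all tested genes. COX15, a haem A synthesis enzyme, fell 1.37-fold (edgeR adjusted p 1.08e-05), the assembly factor COA4 fell 1.33-fold (adjusted p 0.000128) and COX18, which inserts the tail of the MT-CO2 protein into the inner membrane, fell 1.62-fold (adjusted p 0.000189). The assembly factors COA5 and COX16 rose 1.33-fold (adjusted p 0.0177) and 1.20-fold (adjusted p 0.0316), calls that each of several single libraries ended when left out, MLL4KO replicates 1 and 3 among them for both. Of 10 tested nuclear subunits 3 fell, 30% called: COX6C by 1.29-fold (adjusted p 0.000239), COX5B by 1.33-fold (adjusted p 0.00048) and COX8A by 1.30-fold (adjusted p 0.000754).

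Complex I, which oxidises NADH, is represented by MT-ND1, MT-ND2 and MT-ND4, all of which encode parts of its membrane arm. MT-ND1 (ENSG00000198888, chrM:3307-4262, + strand), the first messenger after the rRNAs, was at 1455, 1071 and 1168 CPM in MLL4WT and 873, 734 and 744 CPM in MLL4KO. The groups did not overlap and the mean was 1.57-fold lower in MLL4KO (log2 -0.65 ± 0.13, SE, n = 3 and 3). Without MLL4WT replicate 1, its highest library, it was -0.51, and within the shared codes -0.42 and -0.54.

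MT-ND2 (ENSG00000198763, chrM:4470-5511, + strand) differed less, at 2369, 2051 and 2264 CPM in MLL4WT and 2027, 1778 and 1793 CPM in MLL4KO. The highest MLL4KO library was just under the lowest MLL4WT library. The log2 difference was -0.26 ± 0.07 (SE, n = 3 and 3), and -0.20 without MLL4WT replicate 1. It was not past the threshold without that library or without MLL4KO replicate 2 or 3. MT-ND4 (ENSG00000198886, chrM:10760-12137, + strand) was at 3632, 2475 and 2659 CPM in MLL4WT and 2655, 2242 and 2230 CPM in MLL4KO, with overlap between MLL4WT replicate 2 and MLL4KO replicate 1. Its log2 difference of -0.30 ± 0.17 (SE, n = 3 and 3) was -0.10 without MLL4WT replicate 1, so most of it lay in that library.

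MT-CYB (ENSG00000198727, chrM:14747-15887, + strand) encodes cytochrome b, the one subunit of complex III that mitochondrial DNA supplies, and is the last messenger of the heavy-strand transcript. It was at 1602, 1026 and 1152 CPM in MLL4WT and 1360, 1129 and 1147 CPM in MLL4KO. MLL4WT replicate 1 was the highest library and the other 5 overlapped. The log2 difference was -0.05 ± 0.19 (SE, n = 3 and 3), 0.16 without MLL4WT replicate 1 and 0.24 and 0.15 within the shared codes, so its sign turned with that library, and it was 0.01 with total counts as the scaling.

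MT-ATP6 (ENSG00000198899, chrM:8527-9207, + strand) encodes a subunit of the proton channel of ATP synthase and shares a transcript with MT-ATP8. It was at 2008, 1987 and 2196 CPM in MLL4WT and 2009, 1652 and 1723 CPM in MLL4KO. MLL4KO replicate 1 lay within the MLL4WT range. The log2 difference was -0.20 ± 0.07 (SE, n = 3 and 3) and -0.21 without MLL4WT replicate 1, past the threshold as fitted but not with total counts, upper quartile factors or library sizes from nuclear genes, nor with any of 5 of the 6 libraries left out, MLL4KO replicate 1 being the exception.

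Ratios between messengers show how unevenly they differed. MT-CYB over MT-CO1 was 0.354, 0.260 and 0.271 in MLL4WT and 0.426, 0.421 and 0.427 in MLL4KO, higher in every MLL4KO library. MT-ATP6 over MT-CO2 was 1.26 ± 0.0927 in MLL4WT and 1.72 ± 0.0290 in MLL4KO (SD, n = 3 each). MT-CO1 over MT-CO2 moved least of these, from 2.58 ± 0.0873 to 2.74 ± 0.0178 (SD, n = 3 each), although its groups did not overlap either. These ratios are within a library and do not depend on the scaling between libraries.

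Nuclear partners of the other complexes were also counted. Of the nuclear core of complex I 4 of 7 tested genes fell and none rose, of complex III 4 of 9 fell and none rose, and of complex V 5 of 12 fell and 2 rose, which is 57.1%, 44.4% and 58.3% called beside 41.4% of all tested genes. The 2 complex V genes that rose, ATP5PF (log2 0.58) and ATP5PO (log2 0.53), lie on chromosome 21, where most tested genes rose.

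The differences were also set beside the way each of the 8 messengers ends. The 5 messengers whose stop codon is completed by added adenines had log2 differences from -0.65 (MT-ND1) to -0.05 (MT-CYB), and the 3 with a whole codon from -0.66 (MT-CO2) to -0.20 (MT-ATP6), so the ranges overlap. Without MLL4WT replicate 1 they ran from -0.51 to 0.16 and from -0.61 to -0.21 in the same genes. The part of the messenger end in the differences was not tested.

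**Figure D3:**
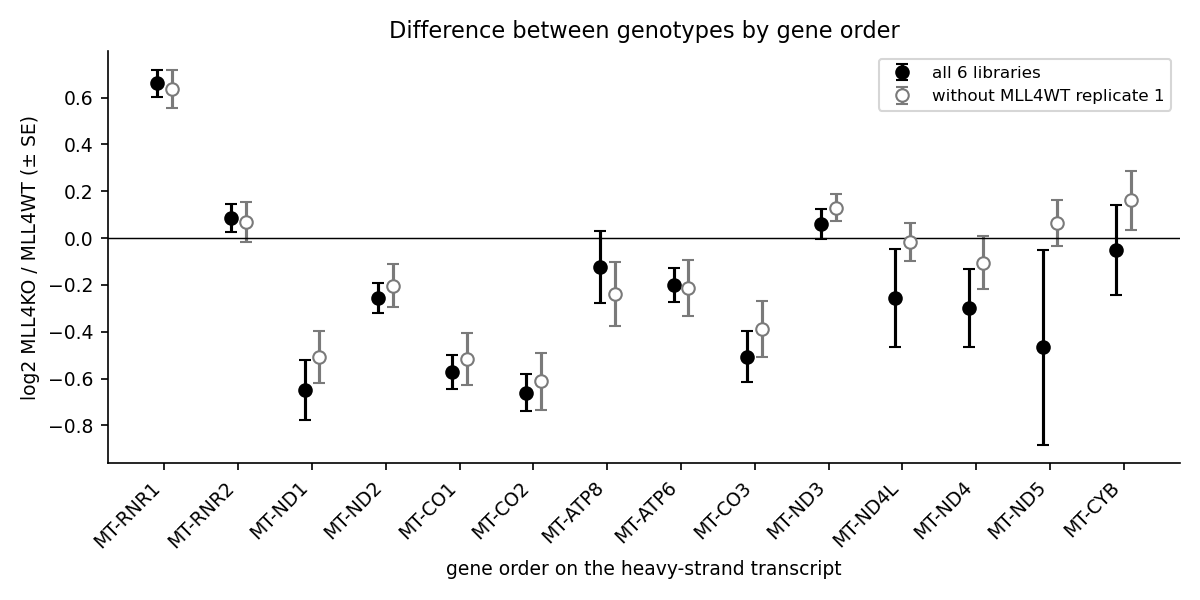
Log2 difference between MLL4KO and MLL4WT (± SE) for the rRNAs and heavy-strand messengers in their order on the transcript, with all 6 libraries and without MLL4WT replicate 1. MT-RNR1 stands highest at 0.66 and MT-CO2 lowest at -0.66, and MT-ND5 and MT-CYB at the end lie above 0 once that library is left out.

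Along the heavy-strand transcript, the log2 differences of the messengers tended to be lower near the start than near the end. Over the 12 heavy-strand messengers, the log2 difference and the rank in the map had a Pearson r of 0.471 and a Spearman rho of 0.434 with all 6 libraries, and 0.797 and 0.783 without MLL4WT replicate 1. Pearson's r was 0.815 and 0.782 within the shared flow cell codes. These correlations are across genes of the same libraries, which are not independent replicates, so no p is given.

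MLL4WT replicate 1 had its own pattern along the same map. Its level over the mean of MLL4WT replicates 2 and 3 was 0.934 in MT-RNR1 and 0.950 in MT-RNR2, 1.30 in MT-ND1, between 1.09 and 1.10 in MT-ND2, MT-CO1 and MT-CO2, 0.733 in MT-ATP8, 0.960 in MT-ATP6, 1.24 in MT-CO3, 1.15 in MT-ND3, 1.57 in MT-ND4L, 1.42 in MT-ND4, 2.33 in MT-ND5 and 1.47 in MT-CYB, in map order. MT-ND6 on the other strand was at 1.70. The 4 messengers at the end of the heavy-strand transcript had the highest values, but the order was uneven, with a Pearson r of 0.588 between the log2 of this value and the rank of the 12 messengers. This library is also the shallowest and the only one with its flow cell code. The part of either in the pattern was not tested.

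**Figure D4:**
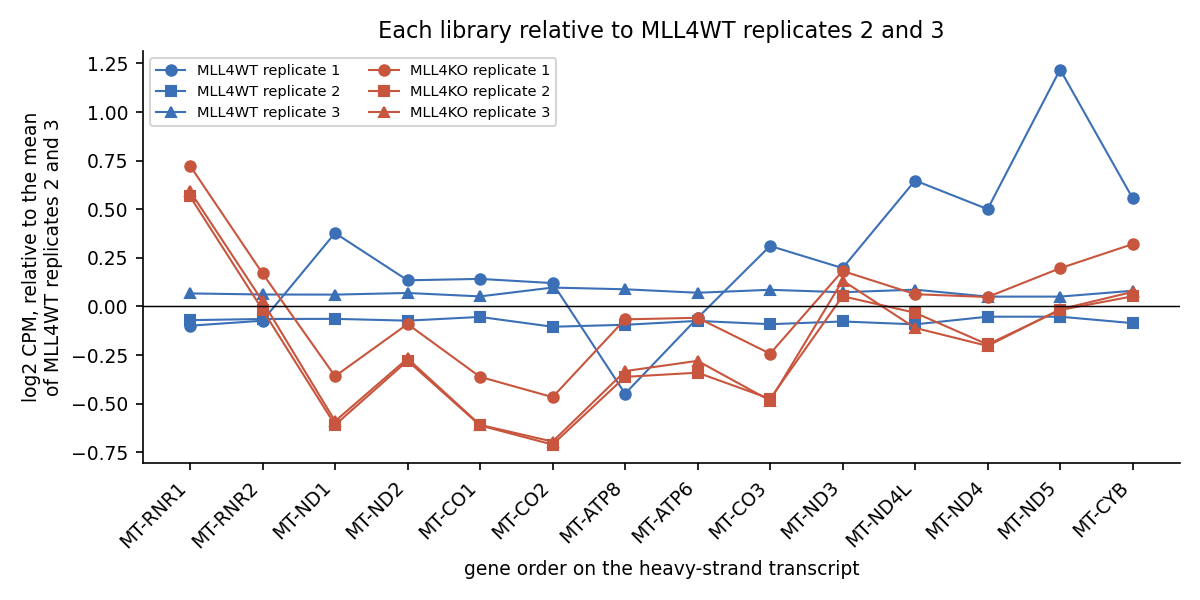
Level of each rRNA and heavy-strand messenger in each library relative to the mean of MLL4WT replicates 2 and 3, on a log2 axis, in gene order. MLL4WT replicate 1 departs from that mean towards the end, where MT-ND5 reaches 2.33 times their mean.

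Of the 5 messengers outside the list none passed the threshold as fitted, and 4 (MT-ND3, MT-ND5, MT-ND6 and MT-ATP8) did with the flow cell code as a term. MT-ND3 had a log2 difference of 0.06 ± 0.06, MT-ND4L of -0.26 ± 0.21, MT-ND6 of -0.25 ± 0.26 and MT-ATP8 of -0.12 ± 0.15 (SE, n = 3 and 3). Without MLL4WT replicate 1 these were 0.13, -0.02, 0.05 and -0.24, so MT-ND6 changed sign. MT-ND5 was at 3087, 1279 and 1374 CPM in MLL4WT and 1520, 1310 and 1313 CPM in MLL4KO. Its log2 difference of -0.47 ± 0.42 (SE) lay in MLL4WT replicate 1 and was 0.07 without it. MT-ATP8 and MT-ND4L overlap MT-ATP6 and MT-ND4, so the way the authors' counting shared reads can affect both genes of each pair. The 22 transfer RNAs, 59 to 75 bases long, are listed at 0 in all 6 libraries, and the sources used here do not give how the counting treated transcripts this short.

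Per kilobase of gene, the rRNAs led the messengers. In MLL4WT the mean level was 5461 CPM per kilobase for MT-RNR2, 3183 for MT-RNR1, 3030 for MT-ATP6, 2750 for MT-CO1, 2448 for MT-CO3, 2408 for MT-CO2, 2138 for MT-ND2, 2120 for MT-ND4, 1288 for MT-ND1 and 1104 for MT-CYB. In MLL4KO, MT-RNR1 reached 5035 CPM per kilobase against 5797 for MT-RNR2, so the gap between the rRNAs was narrower. In that MLL4WT order the libraries of neighbouring members overlapped, except between MT-RNR2 and MT-RNR1 and between MT-ND4 and MT-ND1. In MLL4KO MT-ND1 was the lowest member at 820 CPM per kilobase.

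Copies of mitochondrial genes lie in the nuclear genome, and reads could be shared with them. Of 390 such rows in the table, 31 had a count and 8 had at least 10, together 1.06% of the mitochondrial counts. MTATP6P1 (chr1:633696-634376, 98.53% identical to MT-ATP6) held counts equal to 19.3%, 12.8% and 13.2% of those of MT-ATP6 in MLL4WT and 12.9%, 13.9% and 12.8% in MLL4KO. Adding it to MT-ATP6 gave a log2 difference of -0.23 beside -0.21 for MT-ATP6 alone computed the same way. For MT-ND2 the copy MTND2P28 came to 4.22% in MLL4WT replicate 1 and at most 2.60% elsewhere.

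The nuclear genes that make and look after mitochondrial RNA were lower more often than higher. Of 80 tested genes in 7 lists, for transcription, replication, RNA processing, RNA stability, rRNA modification and ribosome assembly, translation and biogenesis, 34 fell and 2 rose. That is 45% called, beside 41.4% of all tested genes, with a median log2 difference of -0.14. The lists were drawn up with earlier results of these data known. Without MLL4WT replicate 1, 47 fell and 3 rose, where 49.5% of all tested genes were called. With total counts as the scaling 24 fell and 4 rose, where 6100 of 14543 tested genes were called.

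Among 5 transcription genes, 2 fell and none rose, 40% called beside 41.4% of all tested genes. POLRMT, the mitochondrial RNA polymerase, averaged 300 CPM and 298 CPM in the MLL4WT and MLL4KO libraries (adjusted p 0.95 in edgeR), and TFAM, which packages mitochondrial DNA and starts its transcription, at 94.2 ± 9.81 and 103 ± 1.05 CPM (SD, n = 3 each, adjusted p 0.212), although it passed as higher with total counts as the scaling. TFB2M, the initiation factor that opens the promoter, fell 1.19-fold (adjusted p 0.0072), and it did not pass once MLL4WT replicate 3 or MLL4KO replicate 1 was left out. Of 14 replication genes 3 fell, 21.4%, among them LIG3, the mitochondrial DNA ligase, by 1.26-fold (adjusted p 0.000485). With MLL4WT replicate 1 left out 9 of the 14 fell and 1 rose, where 49.5% of all tested genes were called.

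In RNA processing, 7 of 13 fell, 53.8% called beside 41.4% of all tested genes, among them FASTKD1, a regulator of mitochondrial RNA, by 1.45-fold (edgeR adjusted p 0.000116), ELAC2, which cuts the 3′ end of tRNAs from the precursor, by 1.19-fold (adjusted p 0.000506), and TBRG4, which stabilises several messengers, by 1.22-fold (adjusted p 0.00121). In stability and decay, 4 of 7 fell and none rose, 57.1% called, with a median log2 difference of -0.29.

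Several of the stability genes act on poly(A) tails. PDE12, which removes adenines from mitochondrial poly(A) tails, had the largest difference of its list, from 104 ± 2.95 to 47.5 ± 1.49 CPM (SD, n = 3 each), a 2.18-fold fall (edgeR adjusted p 1.59e-08). LRPPRC, which with SLIRP binds and protects messengers, fell 1.22-fold (adjusted p 0.000202), and PNPT1, an RNA-degrading nuclease, fell 1.31-fold (adjusted p 0.000647). SLIRP was at 81.1 and 74.7 CPM (adjusted p 0.0852, or 0.0349 without MLL4WT replicate 1), and MTPAP, the polymerase that adds the tails, at 53.3 and 57.4 CPM (adjusted p 0.211). So the call was made for the remover of adenines and not for the enzyme that adds them, and their difference from each other was not tested.

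**Figure D5:**
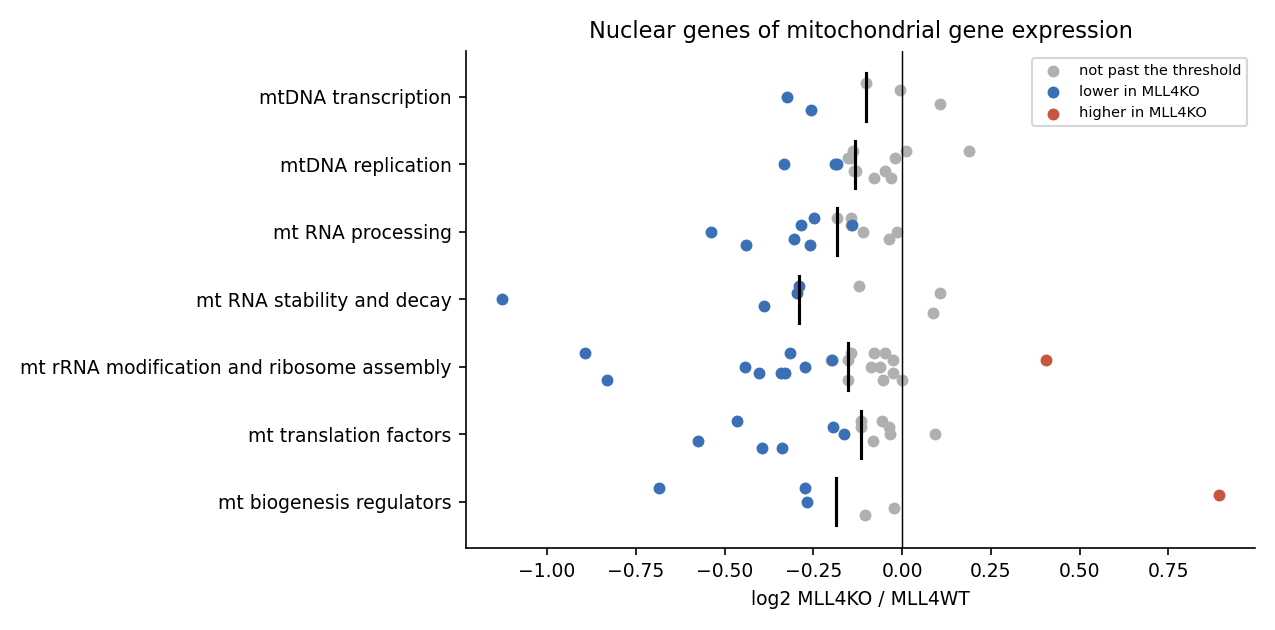
Log2 difference between MLL4KO and MLL4WT for the tested nuclear genes of the 7 lists, 1 point per gene, coloured where past an adjusted p of 0.05, with a line at each list's median. PDE12 is the lowest gene of the stability and decay list, and the list medians lie between -0.29 and -0.10.

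Of 22 genes for rRNA modification and ribosome assembly, 9 fell and 1 rose, 45.5% called beside 41.4% of all tested genes. MTERF3, which acts in assembly of the large ribosomal subunit, fell 1.78-fold (edgeR adjusted p 2.41e-06), DDX28, a helicase of large-subunit assembly, fell 1.86-fold (adjusted p 5.59e-05), and MALSU1, a large-subunit assembly factor, fell 1.26-fold (adjusted p 0.000921). YBEY, an RNA nuclease linked to the small subunit that holds MT-RNR1, rose 1.33-fold (adjusted p 0.0163), a call lost without MLL4KO replicate 2 or 3. In translation, 6 of 13 fell and none rose, 46.2% called. TACO1, which activates translation of MT-CO1, fell by 1.38-fold (adjusted p 4.53e-05) and MRRF, the ribosome recycling factor, by 1.49-fold (adjusted p 5.94e-05). OXA1L, which inserts mitochondrial products into the inner membrane, fell by 1.31-fold (adjusted p 6.8e-05).

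Among 6 tested regulators of mitochondrial biogenesis, 3 fell and 1 rose, 66.7% called beside 41.4% of all tested genes. ESRRA, a nuclear receptor for respiratory genes, fell 1.61-fold (edgeR adjusted p 1.48e-06) and PPRC1, a coactivator, fell 1.21-fold (adjusted p 0.000688), while GABPA, a transcription factor for the same genes, rose 1.86-fold (adjusted p 3.04e-07). GABPA and YBEY, with ATP5PF and ATP5PO of complex V, lie on chromosome 21, where 100 of 147 tested genes rose and 3 fell, with a median log2 difference of 0.51. MTERF3, with COX6C of complex IV, lies on chromosome 8, where 167 of 485 tested genes fell and 80 rose. The part of these chromosomes in the calls was not tested.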

How the data were processed

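The authors deposited estimated counts, one whole number per gene and library without any normalisation, for 3 MLL4WT and 3 MLL4KO libraries, as the values and column names show. Per the submitters' processing notes Salmon 1.8.0, DESeq2 1.44.0 and hg38 were used, in no stated role, and the sources used here do not give the annotation release. The kit is not said to keep strand, so reads of overlapping genes on opposite strands cannot be told apart. Sequences, coordinates and lengths came from GENCODE release 29 on GRCh38.

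Counts were analysed in R 4.3.3 with edgeR 4.0.16: filterByExpr left 14543 genes, TMM set the scaling, and the genotypes were compared by the quasi-likelihood test with Benjamini-Hochberg adjustment over all 14543 genes. Standard errors of gene differences came from the F statistic, and those of ratios from the variance of the log2 ratios within each genotype. In the shallowest library 3 counts are 0.439 CPM. The test was checked on simulated data. The members and all gene lists were chosen with earlier results of these data known. The text names all 10 members, the other messengers, up to 3 genes that rose and 3 that fell by smallest adjusted p in each nuclear list used with 7 genes taken for their roles (POLRMT, TFAM, TFB2M, LRPPRC, SLIRP, MTPAP and PNPT1), and the 5 genes most like the messengers. Of that set, TEFM, TOP3A, RNASEH1, GABPB1, most nuclear subunits of complexes I, III and V and most nuclear copies are not described singly. CDX1, CDX2, CDH1, KRT19 and CD3E were added after their values were seen. From the list of RNAs without a poly(A) tail, 1 item is not reported here. Alternatives were other scalings, filters, DESeq2 1.42.0, limma-voom (limma 3.58.1), a replicate block, a flow cell term and leaving out each library.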

Additional observations from a re-analysis of the deposited data

How the results depend on the processing

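Without MLL4WT replicate 1, 4 of the 10 members were past the threshold (MT-RNR1, MT-CO1, MT-CO2 and MT-ND1), beside 49.5% of all tested genes, and over all libraries left out in turn the number ran from 4 to 7, with 7 as fitted. The log2 difference in the ratio of rRNAs to messengers ran from 0.55 to 0.71 and that in the mitochondrial share from -0.13 to 0.01. With MT-RNR2 alone as the rRNA the ratio's log2 difference was 0.48 and with MT-RNR1 alone 1.06, and with the rRNAs left out the mitochondrial share had one of -0.32. A flow cell term put all 10 members past the threshold, 3 higher and 7 lower, where 51.3% of all tested genes passed. It turned the sign of MT-CYB to 0.19, of MT-ND5 to 0.0843 and of MT-ND6 to 0.0765. MLL4WT replicate 1 is the only library with its code, so with this term it has no weight in the genotype difference. Leaving that library out gave 0.16, 0.07 and 0.05 for the same genes. Why that library stood apart was not tested. The deviations of same-numbered libraries correlated at 0.02, 0.029 and -0.001, which cannot show whether such libraries were handled together. In both genotypes the mean log2 CPM of the 8 messengers was highest in replicate 1 and lowest in replicate 2. A replicate block lowered the SE of each of the 8 messengers and raised that of both rRNAs. What same-numbered libraries have in common was not tested. With a replicate block 5713 genes were called (2689 higher, 3024 lower), with 8 members past the threshold and 34 machinery genes. Depth limits calls for genes near 0.439 CPM, far below every member.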

Other observations

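The mean log2 CPM of the 8 messengers was 11.15, 10.81 and 10.96 in the MLL4WT libraries and 10.74, 10.49 and 10.51 in the MLL4KO libraries, each in replicate order. The 5 genes whose levels followed it most closely over the 6 libraries, by Pearson's r as a description, were ABCB8, a mitochondrial membrane transporter, at 0.997, MYBL2 at 0.997, SPG7, a mitochondrial protease, at 0.996, PI4KB at 0.995 and NUP85 at 0.993. Of 11127 genes compared, 780 had an r above 0.9, so a close match over 6 libraries was common.

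Of the 8 nuclear copies with at least 10 counts, MTCO1P12, a copy of MT-CO1, was 1.51-fold lower in MLL4KO (edgeR adjusted p 0.00426), beside 1.49-fold for MT-CO1 itself, at 0.255% to 0.306% of its counts.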
